A study of Mus musculus with 10 samples.

Results

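The Krüppel-like factor genes form a family of transcription factors, and 10 of them, Klf2, Klf3, Klf4, Klf5, Klf6, Klf7, Klf9, Klf10, Klf13 and Klf16, were described here by the peaks that lay on them in 3 lists. Members were given as a list of names, and a peak belonged to a gene when its midpoint lay in the RefSeq span of that gene on mm10. They are 10 of 34614 genes that code for protein or for long non-coding RNA, and they held 52 of the 50124 peaks in the 3 lists. The study used male mouse embryonic stem (ES) cells from 129 mice, derived from the inner cell mass at 3.5 days after coitum and cultured without feeders in medium with serum and LIF. For YTHDC1, which recognises N6-methyladenosine (m6A) in nuclear RNA, there was 1 pull-down (RNA immunoprecipitation, RIP) and 1 input of total RNA from cells with the genotype Halo-Ythdc1 knockin. For m6A there were 2 precipitates and 2 inputs of polyA RNA from Mettl3-WT cells and the same from Mettl3-KO cells, which lack METTL3, the active subunit of the m6A methyltransferase. Whether the knockout cells were 1 clone is not stated in the labels. The precipitates gave a wild-type m6A list (12368 peaks), a knockout m6A list (6764 peaks) and a YTHDC1 RIP list (30992 peaks).

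Each list gives the position of a peak and nothing else, so a value below is a place, a width or a count. There is no peak height, strand or value per replicate, the depth behind the peaks is unknown, and no difference could be set against a spread between samples. No test was made for this reason. Intervals are exact 95% Clopper-Pearson intervals and cover counting error only. The labels tie the wild-type list to both wild-type precipitates and also to 1 of the 2 knockout precipitates, so its genotype was taken from its name. The knockout list is tied by label to only 1 of the 2 knockout precipitates, in accord with its name. A knockout m6A peak is a peak of the m6A precipitates from cells that lack METTL3, and its position does not show whether it marks m6A. Coordinates use mm10 with the first base as 1.

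Krüppel-like factors bind GC-rich and CACCC-type DNA through zinc fingers at the C-terminal end of the protein, while the rest of the protein recruits activators or repressors. In mouse ES cells Klf2, Klf4 and Klf5 act beside Pou5f1, Sox2 and Nanog and can replace one another in part, Klf4 lies downstream of LIF and STAT3, and Klf4 is one of the factors used to reprogram somatic cells. m6A is written on messenger RNA by the METTL3 complex, mostly in long internal exons and near stop codons. In the nucleus YTHDC1 reads it, with roles in splicing, export and chromatin-associated RNA.

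All 10 genes held at least 1 wild-type m6A peak, against 20.2% of all genes and 30.3% of protein-coding genes. A knockout m6A peak lay in 4 of the 10, Klf2, Klf3, Klf4 and Klf5 (12.2% of all genes, 18.2% of protein-coding genes). A YTHDC1 RIP peak lay in 7 of the 10, the exceptions being Klf4, Klf5 and Klf7 (30.5% of all genes, 42.2% of protein-coding genes). Among protein-coding genes that had a wild-type peak, as all members did, 38% had a knockout peak and 74.5% a RIP peak, so the members' 4 and 7 of 10 lie close to what such genes show. The members were chosen with earlier results of these data known, so these counts describe them and support nothing beyond that. Within the set, Klf2 and Klf3 were in all 3 lists (6.05% of all genes). That share is 2095 genes, beside 6997 genes with a wild-type peak, which every member had. Klf4 and Klf5 were in both m6A lists without a RIP peak. Klf6, Klf9, Klf10, Klf13 and Klf16 had a wild-type m6A and a RIP peak and no knockout peak, and Klf7 was in the wild-type m6A list alone. Apart from all 3 lists, the share of all genes with each of these combinations was not counted. They are not shown to be particular to the members. Since all 10 had a wild-type peak, none could have a knockout peak without a wild-type one (4.59% of all genes did).

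**Figure D1:**
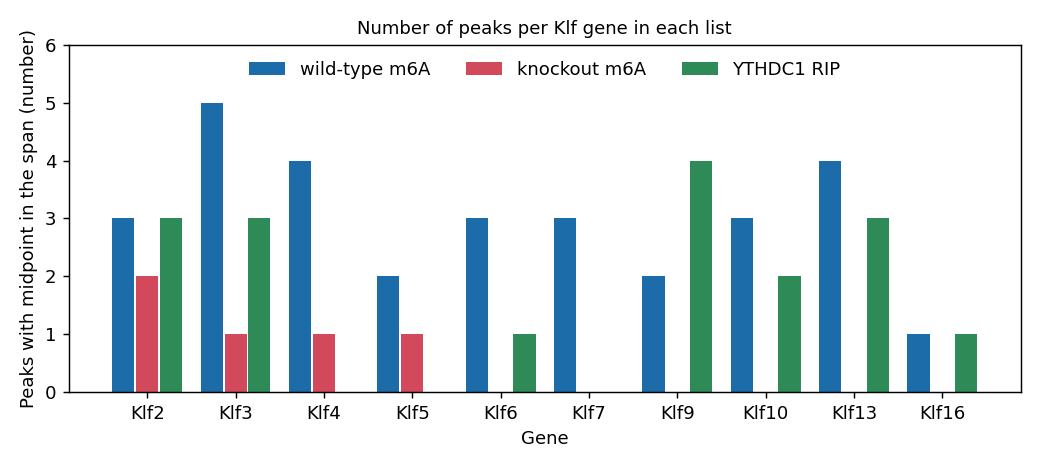
Number of peaks (vertical axis) with the midpoint in the span of each Klf gene (horizontal axis), with 1 bar for each of the 3 lists and no error bar, since each list is 1 value. Klf3 had the most wild-type m6A peaks with 5, Klf9 the most RIP peaks with 4, and only Klf2, Klf3, Klf4 and Klf5 had knockout m6A peaks.

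The wild-type list placed 30 peaks in the 10 spans, with 1 to 5 per gene and a median of 3. Klf3 had 5, Klf4 and Klf13 had 4 each, Klf2, Klf6, Klf7 and Klf10 had 3 each, Klf5 and Klf9 had 2 each, and Klf16 had 1. With 3 or more peaks stood 7 of the 10, whereas among protein-coding genes with a wild-type peak the share was 19.9%. Klf2 with 2593 bp, the shortest span, and Klf7 with 92898 bp, the longest, held 3 peaks each. Whether the counts follow span length was not tested, and transcript length was not worked out. Counting only bases inside the span, wild-type peaks covered 52.4% of the Klf4 span and 44.4% of the Klf2 span, 21.6% of Klf10, 15.9% of Klf6 and 8.83% of Klf9. For the other members the cover was 6.53% or less, down to 1.29% in Klf7.

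Klf2, a factor of the naive state of ES cells, is a compact gene on the plus strand (chromosome 8, 72319062 to 72321654). Its wild-type m6A peaks ran through the body of the gene, with 250 bp at 72319401 to 72319650, 250 bp at 72320101 to 72320350 and 650 bp at 72320651 to 72321300. The last and widest lay toward the 3′ end, with its midpoint 0.7 kb from the end of the span. The knockout list had 350 bp across the start of the gene (72318901 to 72319250) and 300 bp at 72319351 to 72319650. The second contained the whole of the first wild-type peak, and both ended at the same base. The other wild-type peaks of Klf2 were 450 and 1000 bp away from the nearest knockout peak. A further wild-type peak of 150 bp (72318901 to 72319050) ended 12 bp before the start and was not assigned to Klf2 because its midpoint fell before the start, while the knockout peak that contained it was assigned with its midpoint 13.5 bp inside.

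Klf2 also had 3 RIP peaks, each on or close to an m6A peak. The first, of 201 bp (72319107 to 72319307), shared 144 bp with the knockout peak at the start and lay 56 bp from the nearest wild-type peak. The others, of 226 bp (72319982 to 72320207) and 69 bp (72320262 to 72320330), shared 107 and 69 bp with the same wild-type peak in the middle of the gene. The 650 bp wild-type peak was 320 bp from the nearest RIP peak. The RIP peaks of Klf2 lay in the 5′ part and the middle of the span, with no RIP peak on the widest m6A peak.

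Klf4, the reprogramming factor, lies on the minus strand (chromosome 4, 55527137 to 55532475). From the 5′ end its wild-type peaks measured 900 bp (55531551 to 55532450), 1400 bp (55529651 to 55531050), 300 bp (55528051 to 55528350) and 200 bp (55527701 to 55527900). The 900 bp peak began 25 bp after the start of the gene, and its first 200 bp were also the only knockout peak of Klf4 (55532251 to 55532450). The 1400 bp peak ranked 347 among the 12368 wild-type peaks by width and was 1200 bp from the knockout peak. No RIP peak lay in Klf4, and the nearest was 136571 bp from its m6A peaks.

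Klf5, a factor of ES cell self-renewal and of epithelia, had a wide peak at nearly the same place in both genotypes (chromosome 14, 99298691 to 99313412). A wild-type peak of 750 bp (99301401 to 99302150) and a knockout peak of 800 bp (99301401 to 99302200) began at the same base and differed by the last 50 bp, which is the step of the grid on which all m6A peaks of both lists lie. The knockout peak ranked 31 of 6764 by width, whereas the wild-type one ranked 2112 of 12368. The other wild-type peak, of 250 bp (99313201 to 99313450), crossed the high-coordinate end of the span and lay 11000 bp from the knockout peak. No RIP peak lay in the span, and the nearest was beyond that same end at 99314805 to 99315004.

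Klf3, a repressor that works with the CtBP corepressors, had m6A peaks of the genotypes at opposite ends (plus strand, chromosome 5, 64803521 to 64832901). Its knockout peak of 400 bp (64803451 to 64803850) crossed the start, and its 5 wild-type peaks lay in the distal part, between 64% and 88.4% of the way along the span. They measured 250 bp (64822201 to 64822450), 100 bp (64822801 to 64822900), 250 bp (64827101 to 64827350), 300 bp (64828901 to 64829200) and 500 bp (64829251 to 64829750). The first of them was 18350 bp from the knockout peak, so Klf3 had m6A peaks in both lists and none in common. RIP peaks of 207 bp (64803549 to 64803755) and 200 bp (64803839 to 64804038) sat at the start and shared 207 and 12 bp with the knockout peak. The third RIP peak, of 144 bp (64827460 to 64827603), lay 109 bp from a wild-type m6A peak without touching it. The start of Klf3 lies inside the span of Gm38457, a gene model on the opposite strand, and without strand the knockout peak and the RIP peaks there cannot be assigned to Klf3 RNA rather than to that model.

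**Figure D2:**
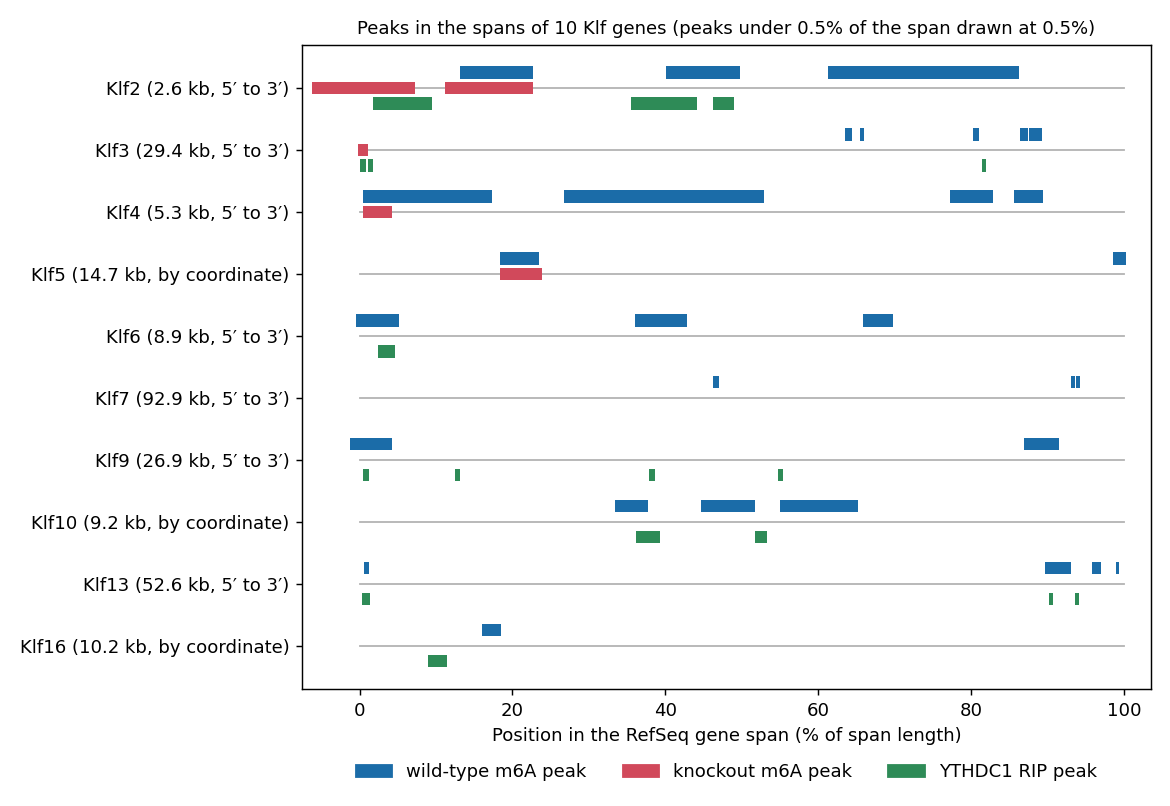
Position of each peak along the RefSeq span of the 10 Klf genes, in percent of the span length, with wild-type m6A above the line, knockout m6A on it and YTHDC1 RIP below it. Genes with a strand run 5′ to 3′, and Klf5, Klf10 and Klf16 run by coordinate; a knockout peak of Klf2, of Klf3 and of Klf4 sits at the left end and a second of Klf2 at 16.9% of its span, while the wild-type peaks of Klf3 lie between 64% and 88.4% of the span.

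Klf6, a broadly expressed factor that responds quickly to stimuli, had 3 wild-type m6A peaks and no knockout peak (plus strand, chromosome 13, 5861489 to 5870393). A 500 bp peak crossed the start (5861451 to 5861950), and 600 bp (5864701 to 5865300) and 350 bp (5867351 to 5867700) followed, with midpoints at 39.4% and 67.8% of the span. The RIP peak of 200 bp (5861698 to 5861897) lay wholly within the peak at the start. Another RIP peak (5860987 to 5861228) ended before the start and was not assigned.

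Klf7, known for its part in the growth of axons, has the longest span of the set (minus strand, chromosome 1, 64029448 to 64122345). Its wild-type peaks were 700 bp near the middle (64078701 to 64079400) and 150 bp (64035501 to 64035650) and 350 bp (64034851 to 64035200) toward the 3′ end, 6.1 and 5.6 kb from it. The 700 bp peak reached into the span of Gm13748, a long non-coding RNA model on the plus strand. Apart from this peak and those at the start of Klf3, no peak of a member overlapped another of the genes considered. No knockout or RIP peak lay in the span, and the nearest RIP peak was 142550 bp from these m6A peaks.

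The members Klf9, Klf10, Klf13 and Klf16 had wild-type m6A and RIP peaks and no knockout m6A peak, and they included the widest peaks of the set. Klf9, a target of glucocorticoid and thyroid hormone receptors, held 1450 bp across its start (chromosome 19, 23140901 to 23142350) and 1250 bp toward its 3′ end (23164601 to 23165850), ranks 302 and 537 of 12368. The span runs from 23141226 to 23168129 on the plus strand, and between the m6A peaks there was a long stretch with none. The 4 RIP peaks measured 216 bp (23141348 to 23141563), 195 bp (23144569 to 23144763), 200 bp (23151413 to 23151612) and 174 bp (23155947 to 23156120). The first lay wholly inside the m6A peak at the start. The rest fell in the stretch between the m6A peaks, 2218, 9062 and 8480 bp from the nearest of them.

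Klf13, known as a regulator of T cell genes, had the widest m6A peak of the 10 genes (minus strand, chromosome 7, 63886351 to 63938915). It measured 1800 bp (63889951 to 63891750), ranked 102 of 12368, and had its midpoint 4.5 kb from the 3′ end. Peaks of 650 bp (63887901 to 63888550) and 250 bp (63886651 to 63886900) lay closer to that end, and 350 bp lay near the start (63938251 to 63938600). RIP peaks were found at both ends: 200 bp (63891282 to 63891481) inside the 1800 bp m6A peak, 200 bp (63889495 to 63889694) at 256 bp from it, and 548 bp (63938235 to 63938782) that contained the whole m6A peak near the start. The last was the widest RIP peak of the set.

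Klf10, a gene induced by TGF-beta, carried 3 wild-type peaks close together in the middle of its span (chromosome 15, 38291464 to 38300711), of 400 bp (38294551 to 38294950), 650 bp (38295601 to 38296250) and 950 bp (38296551 to 38297500). A RIP peak of 284 bp (38294813 to 38295096) shared 138 bp with the first. Another of 144 bp (38296248 to 38296391) shared only 3 bp with the second and was 159 bp from the third. Klf16, the gene with the fewest wild-type peaks, had 250 bp of wild-type m6A (chromosome 10, 80568751 to 80569000) and a RIP peak of 260 bp (80568025 to 80568284) that lay 466 bp apart. Its span runs from 80567121 to 80577296, and the nearest knockout peak was 22250 bp from its m6A peak.

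Of the 30 wild-type peaks, 27 overlapped no knockout peak and 3 did, in Klf2, Klf4 and Klf5 (10%, 2.11 to 26.5%). Among all wild-type peaks in gene spans the share was 11.6%. In the other direction 4 of the 5 knockout peaks overlapped the wild-type list (80%, 28.4 to 99.5%), against 21.4% of all knockout peaks in gene spans. The exception was the peak at the start of Klf3. The bases are unlike, since these 5 peaks lay in genes that all had a wild-type peak. Of the 4210 genes with a knockout peak in the full list, 1588 had no wild-type peak. With only the peaks above the median width of each list, 1 of 4 knockout peaks overlapped (25%). With 5 peaks the interval spans most of the scale.

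RIP peaks overlapped 7 of the 30 wild-type m6A peaks (23.3%, 9.93 to 42.3%), in Klf2, Klf6, Klf9, Klf10 and Klf13. Among all wild-type peaks in gene spans the share was 13.3%, which lies inside that interval. The share was 7.14% (1 of 14) with only the peaks above the median width of each list. Of the 5 knockout peaks 2 overlapped a RIP peak, at the starts of Klf2 and Klf3 (40%, 5.27 to 85.3%, against 21.6% of all knockout peaks in gene spans). Seen from the RIP side, 8 of 17 peaks touched a wild-type m6A peak (7.2% of all RIP peaks in gene spans) and 3 a knockout peak (6.19%). None touched both, and 6 touched neither, of which Klf9 had 3 and Klf3, Klf13 and Klf16 had 1 each. The bases are unlike, since every member had a wild-type peak and the full list includes RIP peaks in genes without one. One of the overlaps with a wild-type peak, in Klf10, was only 3 bp.

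The starts of the genes could be compared for 7 members, Klf2, Klf3, Klf4, Klf6, Klf7, Klf9 and Klf13, for which the RefSeq promoter table (GRCm38.p6, the assembly of mm10) gives the strand. Klf5, Klf10 and Klf16 had no match. Each of the following sequences covers the 70 bases before the start in lower case and the first 30 transcribed bases in capitals. They are shown because an m6A peak of either genotype crossed or lay within 25 bp of that start.
Klf2, chr8:72318992-72319091, plus strand: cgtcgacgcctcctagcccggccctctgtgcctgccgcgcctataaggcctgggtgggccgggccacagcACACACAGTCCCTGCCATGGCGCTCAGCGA
Klf3, chr5:64803451-64803550, plus strand: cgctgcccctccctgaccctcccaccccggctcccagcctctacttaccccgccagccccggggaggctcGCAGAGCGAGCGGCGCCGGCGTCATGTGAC
Klf4, chr4:55532446-55532545, minus strand: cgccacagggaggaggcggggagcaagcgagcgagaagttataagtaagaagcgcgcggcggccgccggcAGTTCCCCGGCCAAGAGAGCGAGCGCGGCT
Klf6, chr13:5861419-5861518, plus strand: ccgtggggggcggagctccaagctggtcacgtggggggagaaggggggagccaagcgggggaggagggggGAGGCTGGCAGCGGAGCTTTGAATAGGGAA
Klf9, chr19:23141156-23141255, plus strand: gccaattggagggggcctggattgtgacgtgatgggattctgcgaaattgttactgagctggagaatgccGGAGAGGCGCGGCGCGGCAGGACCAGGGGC

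The m6A peaks next to these starts came from different lists. Klf2 and Klf3 had a knockout peak across the start, and no wild-type peak assigned to the gene there. At Klf2 this rests on the midpoint rule, since an unassigned wild-type peak of 150 bp lay inside that knockout peak and ended 12 bp before the start. Klf4 had both, each beginning 25 bp inside the transcript. Klf6 and Klf9 had a wild-type peak across the start and no knockout peak. Klf13 had a wild-type peak 315 bp and a RIP peak 133 bp after the start, and Klf7 had no peak there. The letters GGAC, the core of the sequence in which m6A is most often found, were searched on the transcript strand in the 300 bases from 250 before to 50 after each start. They occurred in 5 of the 7 windows, those of Klf2, Klf3, Klf7, Klf9 and Klf13, against 65.6% of all 32851 windows in the table. The start of Klf7 in that table lies 956 bp from the end of its span, so its window is at another start than the one used for its peaks, while for the other 6 genes the starts coincide. On the other strand they occurred in 3 of the 7, Klf2, Klf6 and Klf13, against 66.1%. The 250 bases before a start are not part of the RNA made from it. Within the first 50 transcribed bases the letters GGAC occurred in Klf9, 2 times, and in none of the other 6 members, against 18.9% of all windows.

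Of the 4 knockout peaks in these 7 genes, 3 had their nearest edge within 200 bp of the start (75%, 19.4 to 99.4%), and the fourth, in Klf2, began 289 bp after it. Among all knockout peaks in genes of known strand 34.3% lay so close. Of the 24 wild-type peaks 3 did, in Klf4, Klf6 and Klf9 (12.5%, 2.66 to 32.4%), against 5.12% of all wild-type peaks. The unassigned wild-type peak that ended 12 bp before the start of Klf2 is not among the 24. For RIP peaks it was 4 of 14, in Klf2, Klf3, Klf9 and Klf13 (28.6%, 8.39 to 58.1%), against 8.17%. The RIP peak of Klf6 lay just beyond that distance, 209 bp after the start. By midpoint within 200 bp no wild-type peak counted (0 of 24, which allows up to 14.2% by the exact interval), since a wide peak inside the gene has its midpoint farther in. The same measure gave 2 of 14 RIP peaks (14.3%, 1.78 to 42.8%), against 4.94% of all RIP peaks in genes of known strand, which lies inside that interval. At the 3′ end none of these peaks in any of the 3 lists had an edge within 200 bp, where 9.76% of all wild-type, 1.28% of all knockout and 2.82% of all RIP peaks did. With 24, 4 and 14 peaks, counts of 0 cannot be told from those shares.

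**Figure D3:**
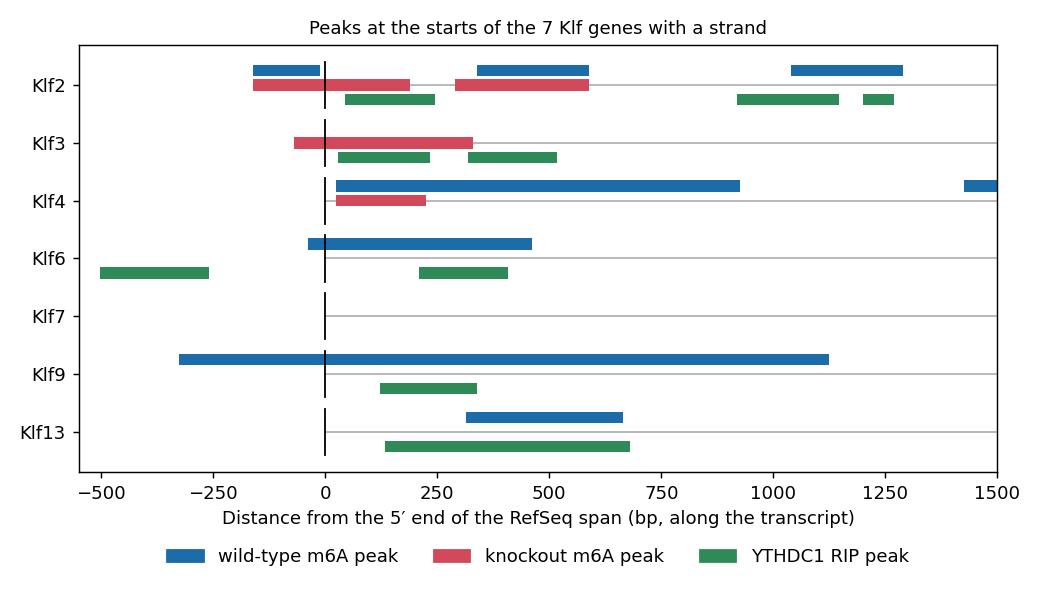
Peaks from 550 bp before to 1500 bp after the 5′ end of the RefSeq span (horizontal axis, bp along the transcript, vertical mark at 0) for the 7 Klf genes with a strand, including peaks whose midpoint lies outside the span. Knockout m6A peaks cross the start in Klf2 and Klf3 and begin 25 bp after it in Klf4, and the wild-type m6A peaks of Klf6 and Klf9 cross it.

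Peak widths are given beside those of the full lists. The wild-type m6A peaks of the members had a median of 375 bp (95% interval from order statistics, 250 to 650 bp) and a range from 100 to 1800 bp, beside a median of 400 bp over all wild-type peaks in gene spans. Of these 30, 4 were 1 kb or wider (13.3%, against 9.75% of all), all in Klf4, Klf9 and Klf13. The 5 knockout peaks measured 200, 300, 350, 400 and 800 bp, with a median of 350 bp beside 250 bp for all. The 17 RIP peaks ranged from 69 to 548 bp with a median of 200 bp, equal to that of all RIP peaks in gene spans. None belonged to the kilobase-wide RIP peaks, which reach 11710 bp in the full list. Width depends on depth, enrichment and the caller, and measures neither the amount of m6A nor of binding.

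**Figure D4:**
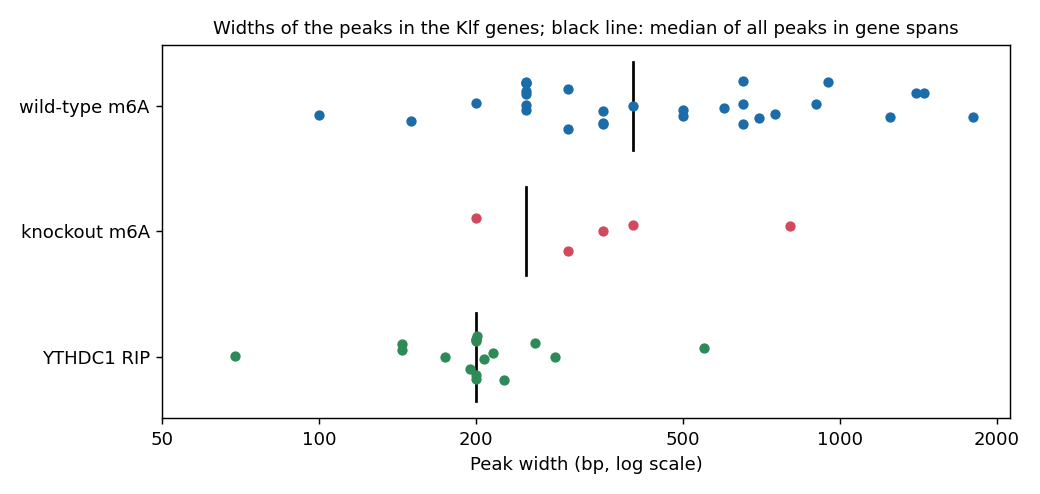
Width of every peak in the 10 Klf genes (horizontal axis, bp, log scale) by list, 1 point per peak with vertical scatter for visibility, and a black line at the median of all peaks in gene spans of that list. The wild-type points reach from 100 to 1800 bp around a line at 400 bp, the 5 knockout points lie between 200 and 800 bp, and the RIP points cluster at 200 bp.

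The other 7 Klf genes were counted in the same way. A wild-type m6A peak lay in 3 of them, Klf8 (2 peaks), Klf11 (2 peaks, the wider of 1050 bp) and Klf15 (3 peaks, the widest of 1250 bp). Klf8 also had 1 knockout peak, 22800 bp from its nearest wild-type peak. RIP peaks lay in 4, Klf1 and Klf12 with 1 and Klf8 and Klf15 with 2. Both RIP peaks of Klf15 overlapped its 1250 bp m6A peak. Klf14 and Klf17 had none in any list. Peak lists do not give expression, so a gene without a peak may be silent or unmarked. Because the choice of the 10 was made with results known, the difference between the groups was not tested.

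The closest relatives, the Sp genes, bind similar GC-rich sites. Of 9 genes, 4 had a wild-type peak (Sp1, Sp2, Sp3 and Sp4), 2 a knockout peak (Sp1 and Sp2) and 3 a RIP peak (Sp2, Sp3 and Sp4). The LIF and naive pluripotency pathway in which Klf2, Klf4 and Klf5 act had a wild-type peak in 17 of 20 genes, a knockout peak in 10 and a RIP peak in 16. Over all protein-coding genes the shares were 30.3%, 18.2% and 42.2%. Among those with a wild-type peak, 38% had a knockout peak and 74.5% a RIP peak. Both context lists were written with earlier results known, so these counts were not tested. Upstream of Klf4, the receptor subunit gene Il6st had a wild-type peak of 1750 bp, 1 knockout peak and 5 RIP peaks. Its partner Lifr had 2 wild-type and 7 RIP peaks and no knockout peak. The transcription factor gene Stat3 had 2 RIP peaks and no m6A peak, and its feedback inhibitor Socs3 had a wild-type m6A peak of 1250 bp alone. Pou5f1 had no wild-type, 1 knockout and 2 RIP peaks. It was the only one of the 20 with a knockout and no wild-type m6A peak. The 10 Klf genes could not show this combination, since all had a wild-type peak.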

How the data were processed

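The data deposited by the authors are 3 peak lists in BED form giving chromosome, start and end in bp. They carry no score, and counts of peaks were made from these deposited positions. Aligners STAR 2.7 and HISAT2 2.2.0, the peak caller MACS2 2.1.2, the utilities Trim Galore 0.6.4, SAMtools 1.9 and bcl2fastq, and the build mm10 are named per the submitters' processing notes. The step each tool served, the peak threshold and any pooling of replicates were not given in the sources used. Both m6A lists lie on a 50 bp grid (100% of peaks), the RIP list does not (0.513%), so they were not made by identical steps.

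Gene spans came from RefSeq GRCm38.p6 (21887 protein-coding genes and 12727 genes of long non-coding RNA on the autosomes, X and Y). Strands and start sequences came from its promoter table, which matched 7 of the 10 members and 27025 genes. A peak in several spans counted for each of those genes. Overlap meant 1 shared bp or more. Python 3.11.15, pandas 2.3.3 and scipy 1.17.1 were used, and the overlap code was tested on simulated peaks.

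The members and gene lists were chosen with earlier results of these data known. All 10 members were named. The context lists were the other 7 Klf genes, 9 Sp genes and 20 genes of the LIF and naive pluripotency pathway. Markers of ES cells and of other lineages were counted as well. The alternatives were other rules for assigning peaks to genes, for overlap and for width, and the distance to the start, in 3 measures, was added after seeing the data.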

Additional observations from a re-analysis of the deposited data

How the results depend on the processing

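No paired analysis was possible because each list holds 1 set of positions with no value per replicate, and for the same reason no replicate could be left out. Of 41 values recomputed under an alternative, 37 stayed within their interval or within 1.5 times their count and 4 moved. This tally is a weak check, since intervals from few peaks are wide. For the knockout peaks overlapping a RIP peak, 25% and 60% both counted as staying beside 40% (5.27 to 85.3%). Assigning peaks by any overlap with the span gave the same numbers of peaks as the main rule, 30, 5 and 17. With only peaks wider than the median of their list, the share of knockout peaks overlapping the wild-type list went from 80% to 25%, and that of wild-type peaks overlapping the RIP list from 23.3% to 7.14%. This alternative leaves fewer peaks on both sides. By midpoint within 200 bp, 0% of wild-type peaks lay near a start, and by midpoint within 500 bp 100% of the 4 knockout peaks did. Overlap of at least 50% of the shorter peak gave 16.7% for wild-type peaks on RIP peaks, and counting peaks within 200 bp gave 33.3%. Depth is unknown.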

Other observations

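Markers were counted in the peak lists as a description of which genes they hold. Of the 5 markers of ES cells, Pou5f1, Sox2, Nanog, Zfp42 and Esrrb, 4 had a wild-type m6A peak and all 5 had a knockout m6A and a RIP peak. All 5 are also among the genes of the LIF and naive pluripotency pathway counted above. Of 8 markers of other lineages, Sox1 had wild-type m6A peaks, Pax6 had a RIP peak, and Sox17, Gata6, T, Mesp1, Cdx2 and Elf5 had no peak in any of the 3 lists. Peak lists do not measure expression, so these counts do not check the cell type label.

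The nearest RIP peaks outside the member spans lay beyond the high-coordinate end of Klf10 (chromosome 15, 38301419 to 38301618, inside the span of the long non-coding RNA model Gm35248), beyond the same end of Klf5 and before the start of Klf6. They were left with no member by the midpoint rule.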
